A study of Mus musculus with 9 samples.

Results

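The Dlk1-Dio3 cluster is a group of microRNA (miRNA) genes inside an imprinted region of mouse chromosome 12. Its probes were taken by name from a list of 35 miRNAs of the region, under their mouse names or a human name. This gave 39 of the 582 miRNA probes on the array, covering 31 of the 35 names. Of the 39 probes, 30 carried a mouse name and 9 carried only a human name (written with the prefix hsa), in some cases beside a mouse-named probe for the same miRNA. No probe named for the mature form of miR-134, miR-341, miR-376c or miR-541 was found.

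The groups compared were 3 female C57Bl6/J mice given 5-fluorouracil (5-FU, 150 mg/kg, intraperitoneal) and 5 untreated females of the same strain, all aged 6 weeks. No vehicle is given for the untreated mice. Marrow was taken at day 4. 5-FU blocks DNA synthesis and so kills cycling cells. Total RNA came from whole marrow after lysis of red cells, and miRNAs were ligated to adaptors, amplified and read as fluorescence on probe-coupled beads. There were 9 arrays in 2 batches, with 5-FU animals 1, 2 and 3 in batch 2 and 5-FU animal 1 again, beside the 5 untreated animals, in batch 1. The 2 arrays of 5-FU animal 1 were averaged, so n is 3 treated and 5 untreated animals. In RNA from whole marrow, fewer cells of a type and less miRNA per cell cannot be told apart.

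At this locus the paternal chromosome expresses protein-coding genes such as Dlk1, Rtl1 and Dio3, and the maternal chromosome expresses long non-coding RNAs from which the miRNAs are cut. The miRNAs are best known from brain, placenta and embryonic tissue, and the locus has been studied in long-term blood stem cells. They fall into 3 stretches along the chromosome. The miRNAs antisense to Rtl1, such as miR-127, miR-136, miR-433 and miR-434, match the Rtl1 transcript fully and direct its cleavage. miR-370 lies within the non-coding RNA Rian. The long run from miR-379 to miR-410 is overlapped by the non-coding RNA Mirg.

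The mature sequences below belong to the probes whose values carry the results, and show the seed of the miRNA each probe is named for. They are RefSeq entries of build GRCm38.p6, written 5′ to 3′, with the seed (bases 2 to 8) in capitals. Probe names that give no arm were assigned the arm shown. The letters of the bead probes themselves were not used here.
miR-127-3p: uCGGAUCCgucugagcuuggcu
miR-434-3p: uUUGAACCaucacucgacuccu
miR-379-5p: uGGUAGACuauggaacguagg
miR-329-3p: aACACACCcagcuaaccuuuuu
miR-300-3p: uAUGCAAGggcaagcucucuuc
miR-381-3p: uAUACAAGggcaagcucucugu
miR-382-5p: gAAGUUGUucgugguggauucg
miR-154-5p: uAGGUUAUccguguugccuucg

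All lie on the plus strand of chromosome 12. miR-127-3p is at chr12:109592888-109592909 in the anti-Rtl1 stretch, miR-379-5p at chr12:109709065-109709085 at the start of the long run, and miR-154-5p at chr12:109738438-109738459 within it. A RefSeq mature sequence matched 28 of the 30 mouse-named probes, and these had 28 distinct seeds, so no seed was shared within the probed cluster. Elsewhere in the mouse, 5 of the 28 seeds recur in another miRNA: that of miR-379 in miR-1193-5p, that of miR-411 in miR-7229-5p and that of miR-329 in miR-362-3p, besides those of miR-495 and miR-410. miR-300-3p and miR-381-3p differ at 1 base of the seed and at 3 of 22 bases in all, and how far their probes cross-hybridise was not tested.

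Cluster signal was low in marrow of both groups. Raw bead fluorescence of the 39 probes lay between 6.5 and 196 units over the 9 arrays, with a median of 27, against a median of 29 and a highest value of 14764 over all miRNA probes. The same probes read 6 to 33 units in the 2 wells that held water and 30 to 93 units in the well that held only TMAC wash buffer. Of the 39, 26 exceeded both water wells on all 9 arrays, against 55.8% of all probes. Only miR-379 exceeded all 3 background wells on all 9 arrays, against 30.9% of all probes.

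**Figure D1:**
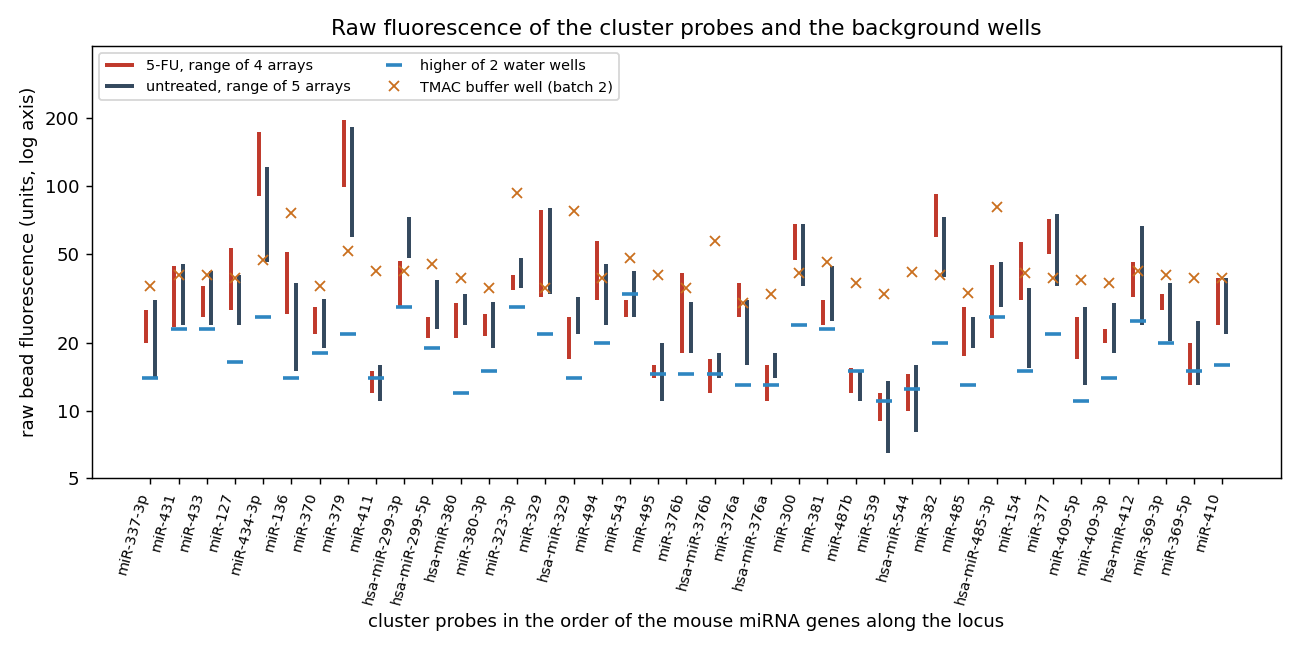
Raw bead fluorescence (units, log axis) of the 39 cluster probes in the order of the mouse genes along the locus, with the range over the 4 arrays of 5-FU animals left and the range over the 5 untreated arrays right of each position. Dashes mark the higher of the 2 water wells and crosses the TMAC buffer well, which is labelled as batch 2. Most bars lie below the cross, and the miR-379 bars lie wholly above it.

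The plot of raw fluorescence shows that the 5-FU and untreated ranges overlapped for every tested cluster probe except hsa-miR-299-3p, which had all 4 arrays of 5-FU animals (29 to 46.5 units) below all 5 untreated ones (48 to 73 units).

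The values compared below are the normalized log2 signals made by the authors, in which 3 is a floor for anything at or near background. miR-127, miR-434-3p, miR-379, hsa-miR-380, miR-329, miR-300, miR-382 and miR-377 lay above the floor on all 9 arrays. These 8 are 20.5% of the cluster, against 38.1% of all probes. The highest cluster value was 7.05, and 2 of 351 values exceeded 7. None of the 39 was among the probes that passed the authors' own signal threshold, which 28.9% of all probes did. Another 7 probes lay at the floor on all 9 arrays, namely miR-495, miR-487b, miR-539, miR-369-5p, hsa-miR-376a, hsa-miR-376b and hsa-miR-544.

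The number of cluster probes above the floor varied as much within groups as between them. In 5-FU animal 1 it was 16 of 39 on the batch 1 array and 27 on the batch 2 array of the same animal. In 5-FU animals 2 and 3 it was 23 and 25. In untreated animals 1 to 5 it was 18, 13, 29, 21 and 22, so the untreated range held all 4 values from treated animals. Of the probes above the floor in batch 2, 5 (miR-411, hsa-miR-299-5p, miR-323-3p, miR-381 and miR-409-3p) had an identical value on all 3 of its arrays, between 3.04 and 3.21. With these counted as at the floor, the batch 2 numbers became 22, 18 and 20 in 5-FU animals 1, 2 and 3.

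**Figure D2:**
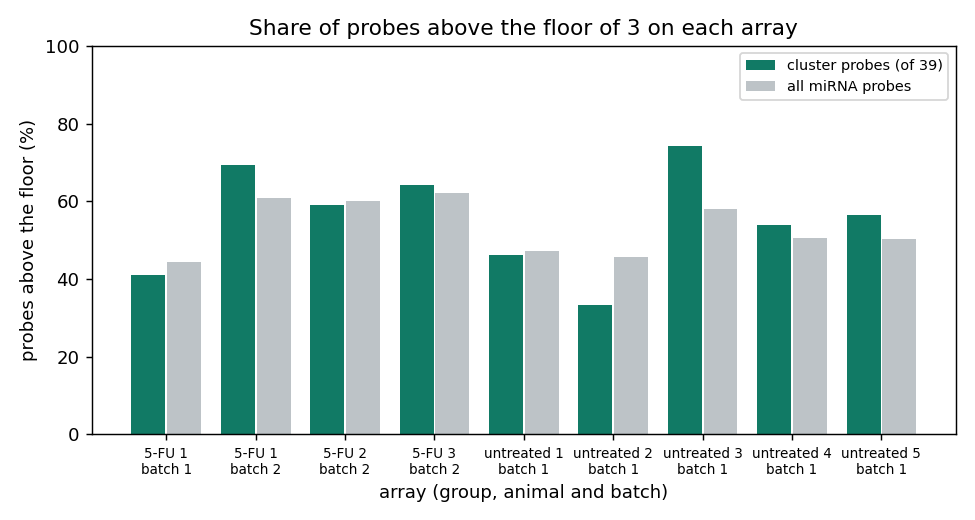
Share of probes above the floor of 3 on each array, in percent, for the 39 cluster probes and for all 582 miRNA probes. Both shares are lower on the batch 1 array of 5-FU animal 1 (16 of 39 cluster probes) than on its batch 2 array (27 of 39), and untreated animal 3 has the highest cluster share.

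The comparison asked which cluster miRNAs differed in marrow 4 days after 5-FU. Testing required a signal over the floor in 3 or more of the 8 animals, which 29 cluster probes had. Of these, 2 changed: miR-154 was higher and hsa-miR-299-3p was lower in treated marrow (limma, Benjamini-Hochberg adjusted p under 0.05 over all 379 tested probes). Over all tested probes 40.6% changed, 15.6% higher and 25.1% lower. Among tested probes with a mean under 5, where 26 of the 29 cluster probes lay, 29.4% changed. The median log2 change was 0.00 in the cluster and -0.16 over all tested probes, and 15 of 29 cluster probes had a change above 0, against 41.4% of all. Within batch 1, or with batch in the fit, the order turned, with medians of -0.12 in the cluster and -0.07 over all tested probes, and 11 of 29 cluster probes above 0.

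The treated animals lay wholly outside the untreated ones for 5 of the 29 probes, against 49.9% of all tested probes. These were miR-154, miR-382, miR-300 and miR-411 on the high side, where the share over all probes was 24.3%, and hsa-miR-299-3p on the low side, where it was 25.6%. miR-411 counts only because of a value of 3.04 that was the same on all batch 2 arrays. On the batch 1 array of 5-FU animal 1 and in every untreated animal it was at the floor. On that batch 1 array miR-382 and miR-300 lay inside the untreated range.

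**Figure D3:**
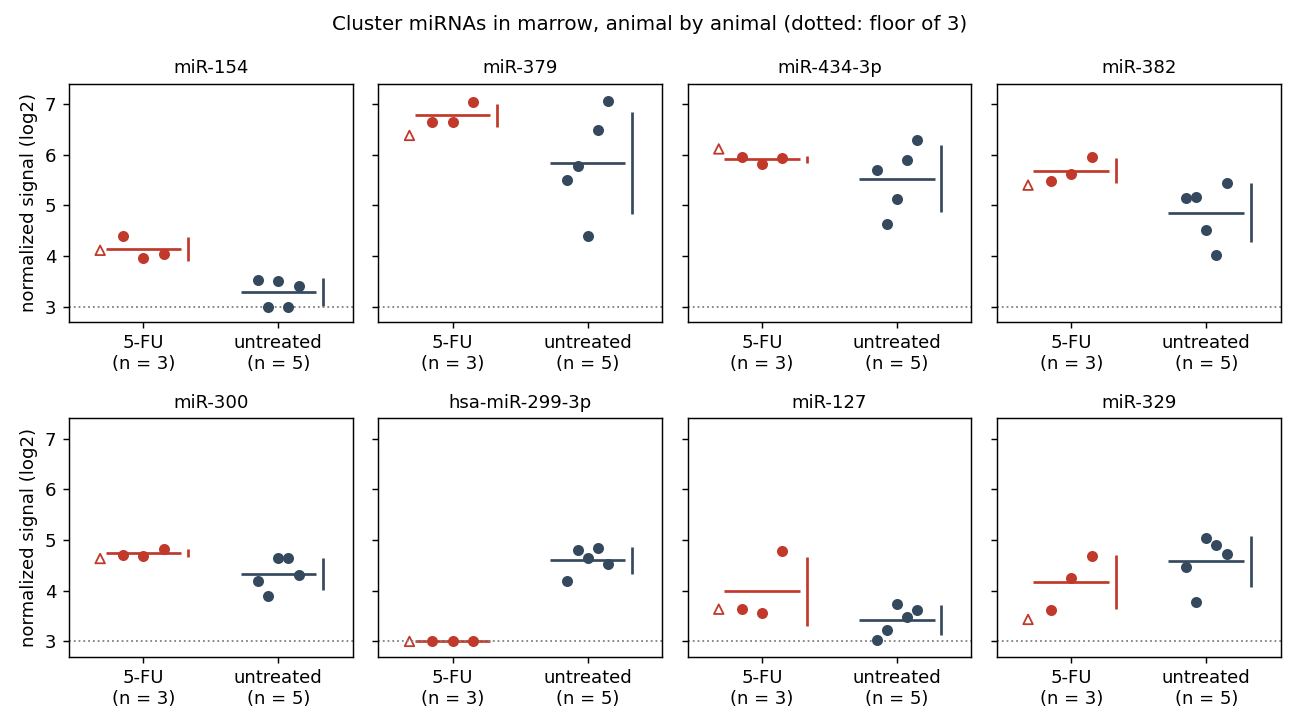
Normalized log2 signal of 8 cluster miRNAs in 5-FU animals (left, n = 3) and untreated animals (right, n = 5), 1 filled point per animal, with the group mean as a horizontal line, the SD as a vertical bar and the floor of 3 dotted. The open triangle is the batch 1 array of 5-FU animal 1, whose filled point averages both of its arrays. By the filled points, miR-154, miR-382 and miR-300 lie wholly higher and hsa-miR-299-3p wholly lower in treated animals, and the other 4 overlap. For miR-382 and miR-300 the open triangle lies inside the untreated range.

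The probes antisense to Rtl1 came first along the locus, and none of the 5 tested changed. Their log2 changes ran from -0.08 to 0.57 with a median of 0.38, and 4 of 5 were above 0 (3 to 5 under the other scalings). miR-434-3p, one of the miRNAs that pair with the Rtl1 transcript, was 5.95, 5.82 and 5.94 in 5-FU animals 1 to 3, against 5.69, 4.63, 5.12, 5.90 and 6.29 in untreated animals 1 to 5. The treated animals lay close together inside a wider untreated range. Its log2 change was 0.38 (SE 0.37, limma adjusted p = 0.447).

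miR-127, whose host transcript runs antisense to Rtl1, was 3.64, 3.56 and 4.77 in 5-FU animals, against 3.02, 3.22, 3.74, 3.49 and 3.62 in untreated animals. Only 5-FU animal 3 lay above the untreated range, and the log2 difference was 0.57 (SE 0.32, limma adjusted p = 0.198). miR-136, from the same antisense transcript, was 3.88, 3.27 and 4.56 in 5-FU animals, against 3.00, 3.00, 3.71, 3.00 and 4.24 in untreated animals. 5-FU animal 3 was again the highest, 3 untreated animals were at the floor, and the change was 0.51 (SE 0.41, limma adjusted p = 0.357). miR-433 and miR-337-3p were the other tested probes of this stretch, and miR-431 was above the floor in too few animals to be tested. miR-370, the probe within Rian, had a change of 0.03 and did not pass the test.

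In the run from miR-379 to miR-410, 23 of 32 probes were tested. Their median log2 change was -0.12, with a range from -1.60 to 0.93, and 10 of 23 were above 0. Both probes that changed lie in this run. miR-154 was 4.40, 3.97 and 4.04 in 5-FU animals, against 3.52, 3.00, 3.51, 3.00 and 3.42 in untreated animals. All treated animals lay above all untreated ones, of which animals 2 and 4 were at the floor. The group means were 4.14 ± 0.23 (SD, n = 3) in 5-FU animals and 3.29 ± 0.27 (SD, n = 5) in untreated animals, a difference of 0.85 (SE 0.18, limma adjusted p = 0.0100), or 1.80-fold. 5-FU animal 1 read 4.11 in batch 1 and 4.68 in batch 2, both above every untreated animal. That gap of 0.57 was the largest between its 2 arrays among the 29 tested cluster probes. In a fit that included batch the change was 0.82 (limma adjusted p = 0.232), a value that rests on the 1 treated array of batch 1, since batch 2 held no untreated animal. Raw fluorescence of this probe was 31 to 56.5 units on arrays of 5-FU animals and 15.5 to 35 units on untreated arrays, with 15 units in both water wells and 41 in the buffer well.

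hsa-miR-299-3p was at the floor in all 3 5-FU animals, against 4.19, 4.80, 4.65, 4.84 and 4.52 in untreated animals. All treated arrays lay below all untreated ones, including that of 5-FU animal 1 from batch 1. The log2 change was -1.60 (SE 0.15, limma adjusted p = 0.000698) against a treated value set by the floor, and no fold is given. From raw values it was smaller, at -1.23 with equal totals, -1.21 after quantile normalization and -1.05 with control beads, and it was -1.13 after median centring. The probe entered the test only through its untreated values, and the treated group at the floor had an SD of 0, so the spread behind this p came from the untreated animals and the other probes. A fit that included batch used all 9 arrays unaveraged, so 5-FU animal 1 entered it as 2 arrays. The change there was again -1.60, as within batch 1, and rests on the 1 treated array of batch 1. The 3 batch 2 arrays, all at the floor, add no spread to that fit, so its passing the threshold is not separate support. The well values for this probe were 28 and 29 units in water and 42 in buffer. Raw values on the batch 2 arrays of 5-FU animals 1 to 3 were 46.5, 43 and 45 units. These exceeded all 3 wells although the normalized values are at the floor. On the batch 1 array of 5-FU animal 1 the raw value was 29 units. The other arm, hsa-miR-299-5p, was 3.06, 3.11 and 3.11 in 5-FU animals, against 3.74, 3.00, 3.44, 3.43 and 3.57 in untreated animals. Untreated animal 2 was at the floor and lay below the treated animals, and the change was -0.34 (SE 0.16, limma adjusted p = 0.129). Without untreated animal 2 this arm passed too (-0.45, limma adjusted p = 0.0102).

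miR-379, the first miRNA of the run, was 6.65, 6.64 and 7.03 in 5-FU animals, against 5.49, 5.77, 4.40, 6.48 and 7.05 in untreated animals. Untreated animal 5 was above every treated one and untreated animal 3 far below, so the groups overlapped. The means were 6.77 ± 0.23 (SD, n = 3) in 5-FU animals and 5.84 ± 1.01 (SD, n = 5) in untreated animals, and the change was 0.93 (SE 0.57), with a limma adjusted p of 0.242. The 2 arrays of 5-FU animal 1 gave 6.38 in batch 1 and 6.91 in batch 2.

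miR-382, near the 3′ part of the run, was 5.48, 5.62 and 5.95 in 5-FU animals, against 5.15, 5.17, 4.51, 4.02 and 5.44 in untreated animals. The groups did not overlap, by a margin of a few hundredths between 5-FU animal 1 and untreated animal 5. On its batch 1 array alone 5-FU animal 1 was 5.40, below untreated animal 5. The change was 0.83 (SE 0.34, limma adjusted p = 0.0981), short of the threshold. miR-300 was 4.71, 4.68 and 4.83 in 5-FU animals, against 4.19, 3.89, 4.65, 4.64 and 4.30 in untreated animals. It too was separate by a narrow margin, and the log2 difference was 0.40 (SE 0.18, limma adjusted p = 0.128). For this probe the batch 1 array of 5-FU animal 1 read 4.635, below the 4.649 of untreated animal 3. miR-381, its seed neighbour, was among the probes with a small change.

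The tested probes with the largest falls short of the threshold were miR-329, hsa-miR-485-3p and hsa-miR-412. miR-329, a miRNA of the run known for activity-dependent expression in neurons, was 3.62, 4.24 and 4.68 in 5-FU animals, against 4.46, 3.77, 5.05, 4.90 and 4.72 in untreated animals. 5-FU animal 1 and untreated animal 2 were the low ones, and the change was -0.40 (SE 0.35, limma adjusted p = 0.402). hsa-miR-485-3p was at the floor in all 5-FU animals, against 3.00, 3.24, 4.19, 3.45 and 3.10 in untreated animals, and the log2 difference was -0.40 (SE 0.27, limma adjusted p = 0.280). hsa-miR-412 was 3.17, 3.32 and 3.54 in 5-FU animals, against 3.94, 3.00, 4.56, 3.54 and 3.57 in untreated animals, a log2 difference of -0.38 (SE 0.33, limma adjusted p = 0.402).

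Changes short of the threshold often rested on single animals or on the setting. Leaving out 1 animal at a time gave 0.15 (without untreated animal 2) to 0.57 (without untreated animal 5) for miR-434-3p, and -0.65 (without 5-FU animal 3) to -0.12 (without 5-FU animal 1) for miR-329. Without 5-FU animal 3 the changes of miR-127 and miR-136 were each 0.18, and without untreated animal 3 that of miR-379 was 0.57 and that of hsa-miR-485-3p -0.20. With batch in the fit miR-329 had -1.15, hsa-miR-412 -0.72, miR-127 0.22, and miR-379 and miR-382 0.54 each. From raw values miR-434-3p had 0.98 at equal total, 1.16 after quantile normalization and 1.11 with control beads, and none of these passed.

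The remaining 17 tested probes had log2 changes between -0.29 and 0.28 and mean signals between 3.01 and 4.66. They were miR-337-3p, miR-433, miR-370, miR-411, hsa-miR-380, miR-380-3p, miR-323-3p, hsa-miR-329, miR-494, miR-376a, miR-381, miR-485, miR-377, miR-409-5p, miR-409-3p, miR-369-3p and miR-410. miR-431, miR-543 and miR-376b were above the floor in too few animals to be tested. Of the 29 tested probes, 23 had a mean signal under 4, close to the floor, where a log2 difference may misstate a true one. hsa-miR-299-3p, one of these, had -1.60 in the deposited values and -1.05 to -1.23 from raw values.

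**Figure D4:**
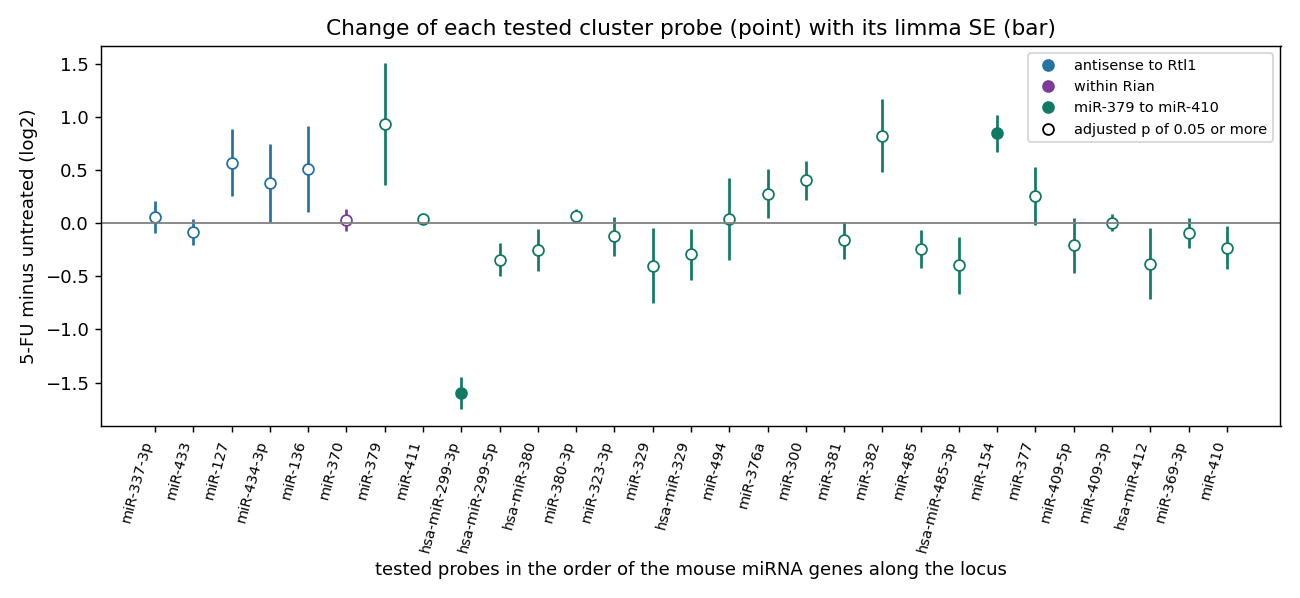
Log2 change (5-FU minus untreated) of the 29 tested cluster probes in the order of the mouse genes along the locus, with the limma standard error as a bar. Filled points are the 2 probes past the threshold, miR-154 above and hsa-miR-299-3p below the zero line, and the other 27 are open.

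The plot of changes along the locus shows probes above and below 0 next to each other in the run from miR-379 to miR-410. Direction differed by probe name among the few tested human-named probes, 2 of which are arms of miR-299. Over all tested probes 41.4% had a change above 0, and other human-named probes of the array were not counted. All 6 tested human-named probes had a change below 0, with a median of -0.36 (after median centring 1 of 6, and 3 of 6 with quantile-normalized raw values), and 15 of 23 mouse-named probes had one above 0, with a median of 0.04. Probes with both names for 1 miRNA did not always go together. The changes were -0.40 for miR-329 and -0.29 for hsa-miR-329, and 0.07 for miR-380-3p and -0.25 for hsa-miR-380, whose arm is not named. miR-376a had a change of 0.28 and was above the floor on 7 arrays, and hsa-miR-376a was at the floor on all 9. What the human-named probes detect in mouse RNA was not tested.

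Untreated animals differed among themselves in the cluster. Untreated animal 3 was the highest untreated animal for 13 of the 29 tested probes, animal 5 for 7, animal 1 for 5, animal 4 for 3 and animal 2 for none, with all 5 tied at the floor for miR-411. For miR-379 untreated animal 3 was the lowest of all 8 animals, and for miR-329 it was the highest.

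The 2 arrays of 5-FU animal 1 set the batches beside each other on 1 animal, but their normalized values may not be independent. The normalized batch 2 column of this animal lay nearer its raw batch 1 column (SD 0.34 on the log2 scale over probes) than its raw batch 2 column (SD 0.50). The batch 2 array was higher for 23 of the 29 tested cluster probes, equal for 4 and lower for 2, with a median difference of 0.14 and a range from -0.33 to 0.57. Over all tested probes 48.3% were higher in batch 2, with a median difference of 0. For 9 of the 29 probes the change between groups was smaller than this difference between arrays. Counting only the batch 1 array, 5-FU animal 1 lay outside the untreated range for 5 of 29 cluster probes (2 above and 3 below), against 39.6% of all tested probes (12.7% above and 26.9% below).

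The direction of small changes depended on the scaling. Centring each array on its median moved the median change over all tested probes to 0.31 and that of the cluster to 0.47, so that 28 of 29 cluster probes were above 0. Then 11 of 29 passed, 10 of them higher, against 45.6% of all tested probes. Centring moves every change by the same amount, so the gap of 0.16 between the cluster median and that of all tested probes is the same by construction. With the deposited values scaled to an equal total, the medians were 0.14 in the cluster and -0.02 over all tested probes. Then 18 of 29 cluster probes were above 0. With raw values scaled to an equal total the cluster median was 0.06 lower than the median of all, which was 0.00. In that setting 13 of 29 probes were above 0. There 2 of 29 passed, against 16.1% of all. hsa-miR-299-3p was lower in treated marrow and miR-154 higher under each scaling tried, though neither passed with scaling to the control beads. With batch included in the fit, over the arrays unaveraged, 1 of 29 cluster probes passed, hsa-miR-299-3p, against 9.76% of all. With animals of the same number as a block it was again 1 of 29, against 13.7%. With the identical batch 2 values set to the floor 2 of 28 passed, against 35.9%.

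Other miRNAs of the locus outside the list were mostly at the floor. Of 9 such probes (hsa-miR-655, hsa-miR-770-5p, hsa-miR-487a, hsa-miR-493, hsa-miR-654-5p, hsa-miR-656, miR-758, miR-668 and hsa-miR-432), 8 were at the floor on all 9 arrays. hsa-miR-655 was above it only on the 3 batch 2 arrays, at one identical value, and was called higher with a log2 change of 0.12 (limma adjusted p = 0.0132) against a floor in all untreated animals.

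Marker miRNAs of blood, stromal and vessel cells, and of muscle and neurons as other tissues, were read in the same animals. A rise or fall here means a limma adjusted p under 0.05. Over all tested probes 15.6% passed as higher and 25.1% as lower, and the lists are short. Of 7 stromal and vessel probes, 5 rose and none fell, with summed linear signals of 8462 to 9855 in 5-FU animals and 3480 to 5746 in untreated animals. Of 3 skeletal muscle probes 3 rose, with sums of 12797 to 13692 in 5-FU animals and 4807 to 9663 in untreated animals. Of 6 blood cell probes none rose and 2 fell (miR-451 of red cells and miR-150 of lymphocytes), with sums of 32514 to 38482 in 5-FU animals and 33405 to 48462 in untreated animals. Of 4 neuron probes, 2 for miR-128 fell and miR-9 did not pass. miR-124 passed as higher but had raw values of 25 to 31.5 units in 5-FU animals and 18 to 29 in untreated animals, below the 36 units of its buffer well. The neuron sums, mostly of the 2 miR-128 probes, were 194 to 241 in 5-FU animals and 767 to 1565 in untreated animals. miR-9 and miR-124 had means of 3.08 and 3.15 over all animals, near the floor. These sums thus follow miR-128 and not the neuron list as a whole. No marker probe was at the floor on all arrays, and the part of these cell types in the cluster values was not tested.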

How the data were processed

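The normalized log2 values were deposited by the authors after scaling to an assumed equal miRNA total, as the series' design text states. Their summed linear signals were 401283 to 402143 on batch 1 arrays and 355655 to 362039 on batch 2 arrays. Totals were thus near equal within a batch but lower in batch 2, which held only treated animals. Raw bead fluorescence intensity without normalization was deposited beside them, per the file headers. The deposited table's p-value column, with the authors' mark for probes passing a signal threshold, was used only to count marked probes. For upstream software, names and versions were not given in the sources used here.

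In the deposited files all 5 raw untreated columns match the normalized column of another untreated animal, so raw untreated values are given by group. The 3 normalized batch 2 columns hold most treated values. They depart from the raw columns of the same name by an SD of 0.503 to 0.507 on the log2 scale over probes. For 5-FU animal 1 in batch 1 this SD was 0.0399. Each of the 3 lay nearer the raw batch 1 column of 5-FU animal 1, at an SD of 0.334 to 0.363. The origin of this is not known here. Control beads (12) were left out. Normalized values were fitted in R 4.3.3 with limma 3.58.1 (lmFit, eBayes, two-sided) on 379 probes above the floor of 3 in at least 3 of 8 animals, with Benjamini-Hochberg adjustment over all of them and a threshold of 0.05. The fit was tested on simulated data with normal noise and neither a floor nor batches. That simulation therefore cannot speak for probes near the floor. Animals are separate mice per the labels. The number of arrays limits the precision, as do the floor and a batch that nearly goes with treatment. Values were given animal by animal for cluster probes with a mean of at least 5, those past the threshold, other probes of the same miRNA, and the 3 largest rises and 3 largest falls among the rest. Members and lists were chosen with earlier results of these data known. Alternatives covered the array of 5-FU animal 1, batch, scaling, filter, test, the replicate block and leaving out each animal. The fit with batch as a term took the 9 arrays without averaging. Setting identical batch 2 values to the floor was chosen after seeing the data.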

Additional observations from a re-analysis of the deposited data

How the results depend on the processing

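Of 379 probes, 154 changed (59 higher, 95 lower). This count was 95 with the batch 1 array of 5-FU animal 1 alone, 37 with batch as a term, 12 within batch 1, 61 for raw values at equal total (30 higher, 31 lower), 99 for quantile-normalized raw values (49 and 50), 3 for raw values scaled to control beads (2 and 1) and 101 among probes above 5. Equal totals of the deposited values gave 86 higher and 79 lower, and median centring 118 and 55. Leaving out 1 animal gave 95 (without 5-FU animal 2) to 168, with 97 without 5-FU animal 3. In the cluster, 2 probes changed. The count was 1 with batch as a term, 0 within batch 1, 4 at equal total, 11 with median centring, 0 with control beads and 0 of 3 with the filter at 5. Leaving out 1 animal gave 2 to 3. The cluster's median change was 0.47 with median centring, 0.83 for the 3 probes above 5, and -0.07 to 0.00 on leaving out 1 animal.

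Small falls turned positive under other scalings. With median centring the changes were 0.13 for hsa-miR-299-5p, 0.071 for miR-329, 0.074 for hsa-miR-485-3p and 0.090 for hsa-miR-412. From raw values miR-329 was 0.087 at equal total, 0.092 after quantile normalization and 0.23 with control beads, hsa-miR-485-3p was 0.12 after quantile normalization, and hsa-miR-412 was 0.22 after quantile normalization and 0.010 with control beads. miR-154 kept its direction but did not pass with batch as a term, within batch 1 (limma adjusted p = 0.263), with control beads (limma adjusted p = 0.114) or with the replicate block (limma adjusted p = 0.0521). hsa-miR-299-3p did not pass within batch 1 or with control beads (limma adjusted p = 0.101). The cause of these differences was not tested.

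Animals of the groups share replicate numbers, but correlations of same-numbered animals' deviations were 0.05, 0.35 and 0.17, so the numbers were not taken as pairs. With the replicate block 52 of all probes and 1 of the cluster changed. Setting identical batch 2 values to the floor left 112 of 312 probes and 2 of 28 in the cluster changed. Signals near the water wells limit most cluster values.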

Other observations

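The array also carried 8 probes named for hairpins of the locus, which were not taken as mature miRNAs. hairpin-hsa-mir-376c was lower in treated marrow, at 3.45 ± 0.28 (SD, n = 3) in 5-FU animals and 4.31 ± 0.24 (SD, n = 5) in untreated animals (log2 change -0.86, limma adjusted p = 0.00904). Its raw values overlapped, at 44 to 70 units on arrays of 5-FU animals and 52 to 75 on untreated arrays. All lay below the 80 units of its buffer well. hairpin-hsa-mir-380 was lower too, at 3.01 ± 0.0044 in 5-FU animals and 4.10 ± 0.45 in untreated animals (log2 change -1.08, limma adjusted p = 0.0144), with an identical value on the 3 batch 2 arrays. Its raw values were 29 to 31 units on arrays of 5-FU animals and 30.5 to 60 on untreated arrays. Over all tested probes 25.1% passed as lower. hairpin-hsa-mir-154 did not pass, at 4.13 ± 0.19 in 5-FU animals and 3.99 ± 0.31 in untreated animals. Nor did hairpin-mmu-mir-434 (log2 change -0.87, limma adjusted p = 0.189), hairpin-hsa-mir-411, hairpin-mmu-mir-341 or hairpin-hsa-mir-433. hairpin-hsa-mir-337 was not tested.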
